A study of Bos taurus with 16 samples.

Results

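The microRNAs of the miR-23a and miR-23b clusters were measured in the bovine corpus luteum as 4 mature forms, miR-27b-3p, miR-23b-3p, miR-23a-3p and miR-24-3p. Their probes were chosen by name and are 4 of the 204 miRNA probes in the table. The corpus luteum is the transient ovarian gland that makes the progesterone on which pregnancy depends. Glands came from Bos taurus cattle that were mated at oestrus, later also inseminated, and found to be pregnant. There were 4 glands each from day 14, day 17, day 20 and day 23 after breeding, 16 in all, with no non-pregnant group, and the sources used here give no breed, age or drug treatment. Total RNA was profiled on the NanoString platform, which counts colour-coded probes hybridised to miRNAs without amplification, in 2 runs that each held 2 glands of every day.

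A microRNA is a short RNA that guides a silencing complex to messenger RNAs that pair with its seed, the bases near its 5′ end. In mammals the miR-23, miR-27 and miR-24 hairpins are made together from either of a pair of transcripts. In the cattle gene table (assembly ARS-UCD2.0) MIR23A, MIR27A and MIR24-2 are direct neighbours in that order, as are MIR23B, MIR27B and MIR24-1 on another chromosome. By name, miR-23b-3p and miR-27b-3p therefore mark the second cluster and miR-23a-3p the first, while mature miR-24-3p is the same from both hairpins and reports their sum. miR-27a-3p of the first cluster was not among the 204 probes, and any signal of it in the miR-27b-3p probe was not measured. In mouse and human endothelial cells miR-23 and miR-27 are known to favour vessel growth, miR-27 is also known to restrain fat cell differentiation, and miR-24 is known as a regulator of cell division and survival. The corpus luteum is among the most densely vascularised tissues of the body. In whole glands, fewer cells of a type and less of a miRNA per cell cannot be told apart.

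All 4 miRNAs were measured well inside the upper part of the profile. Over the 16 glands miR-23a-3p averaged 5320 ± 2080 normalized counts (SD, n = 16), miR-23b-3p 3278 ± 1348, miR-27b-3p 2539 ± 1166 and miR-24-3p 982 ± 261. Levels of different probes also depend on how well each probe hybridises, so this order is a description of the table. Among the 204 probes miR-23a-3p ranked 11 to 15 from the top in every gland, miR-23b-3p 16 to 26, miR-27b-3p 18 to 35 and miR-24-3p 39 to 56. As a share of each gland's total, miR-23a-3p made up 1.16% to 1.81%, miR-23b-3p 0.689% to 1.19%, miR-27b-3p 0.398% to 0.977% and miR-24-3p 0.213% to 0.352%.

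The 38 probes with no bovine miRNA gene of their name or number gave a level for signal without a known target. Their median ran from 40.4 to 88.8 normalized counts in run 2 and from 124 to 258 in run 1. The levels of miR-24-3p, the lowest of the 4, were 12.9 to 31.3 times that median in run 2 and 1.84 to 7.23 times in run 1. Its nearest approach was in day 14 replicate 1, where that median was highest and the gland's total, 175197, was lowest. In that gland miR-27b-3p was 3.34 times the median, miR-23b-3p 4.68 times and miR-23a-3p 8.59 times. miR-23a-3p and miR-23b-3p share their seed and nearly all their bases, and signal shared between their probes was not measured. The probe for miR-23c, a human miRNA with the same seed whose name has no entry in the cattle table, read 25.0 to 93.9 normalized counts, which was 0.277% to 3.48% of the miR-23a-3p value in the same gland.

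For each of the 4 the runs lay further apart than any pair of days. With day held in the fit, run 2 was higher than run 1 for each of the 4 by limma with Benjamini-Hochberg adjustment over all probes. miR-27b-3p was 2.30-fold higher (log2 difference 1.20, SE 0.17, adjusted p = 8.3e-06), miR-23b-3p 2.11-fold (1.08, SE 0.18, adjusted p = 4.3e-05), miR-23a-3p 1.97-fold (0.97, SE 0.19, adjusted p = 1.7e-04) and miR-24-3p 1.59-fold (0.66, SE 0.17, adjusted p = 0.00137). Of all probes 66.2% were called higher in run 2 and 83.3% were called in either direction, so the direction is that of most of the panel. The miR-23c probe went the other way, by -0.86 on the log2 scale (SE 0.20), with an adjusted p of 9.0e-04 by limma. The 8 glands of run 2 lay above the 8 of run 1 without overlap for miR-27b-3p, miR-23b-3p and miR-24-3p. For miR-23a-3p the lowest of run 2 (5057 normalized counts) was below the highest of run 1 (5201). The share of all probes that separated the runs without overlap was not counted, so this separation does not set the members apart from the panel. Totals ran from 373847 to 536516 normalized counts in run 2 and from 175197 to 331164 in run 1. The main tests between days therefore hold the run, whereas means, SDs and ranges given by day alone mix both runs.

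No member passed an adjusted p of 0.05 between any pair of days. Day 23 against day 14 had 0.49% of all probes called, and each of the other 5 pairs of days, as well as the test of the 4 days together, had 0%. With run held, all 4 members were above 0 on each later day relative to day 14, but miR-27b-3p was the only one above 0 on all 3 days also with totals made equal, in run 2 alone and without both run 1 glands of day 14. Each of the others was below 0 on at least 1 later day in 1 or more of these settings: miR-23a-3p in all 3 of them, miR-24-3p in all 3 and miR-23b-3p on day 17 in the last 2 (-0.019 and -0.13). The last 2 settings both take day 14 from the run 2 glands alone, so they are not separate checks. By comparison, 51.5% of all probes were above 0 on day 17, 51.5% on day 20 and 50% on day 23, each day taken singly. All 3 differences share the day 14 glands. The share of all probes above 0 on all 3 days, or also in these settings, was not counted, so this does not set miR-27b-3p apart from the panel. At an unadjusted p under 0.05, 2 of the 4 were higher on day 23 than on day 14, miR-27b-3p and miR-23b-3p, against 13.2% of all probes higher and 21.1% in either direction. In the other pairs 0 of 4 had such a p, against 2.45% of all probes for day 17 and 6.37% for day 20 relative to day 14, 0.49% for day 20 and 11.8% for day 23 relative to day 17, and 4.9% for day 23 relative to day 20. Over the 4 days together it was 1 of 4, miR-27b-3p, against 8.33%.

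miR-27b-3p had the largest difference of the 4 between day 23 and day 14. In run 2 its normalized counts were 2673 and 3378 on day 14, 2866 and 3692 on day 17, 3654 and 3266 on day 20, and 3474 and 5046 on day 23. In run 1 they were 862 and 1133 on day 14, 1784.5 and 1436 on day 17, 1796 and 1152 on day 20, and 2259.6 and 2147 on day 23. Within each run both day 23 glands lay above both day 14 glands, whereas over both runs the days overlapped.

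**Figure D1:**
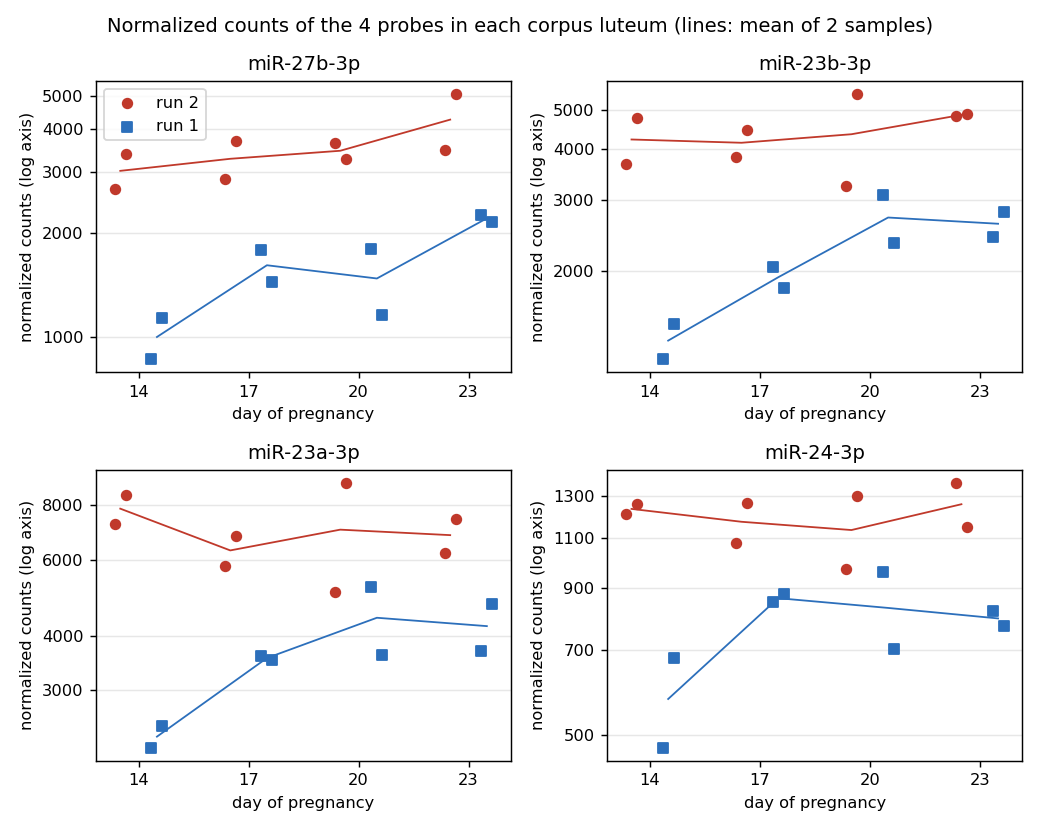
Normalized counts (log axis) of each of the 4 probes by day of pregnancy; each point is 1 gland, circles are run 2, squares are run 1, and lines join the mean of the 2 glands of a day and run. The 2 run 1 glands of day 14 are the lowest of their run in all 4 panels, at 862 and 1133 for miR-27b-3p, and the panel of miR-27b-3p is highest on day 23 in both runs.

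Between day 23 and day 14, miR-27b-3p averaged 3232 ± 1351 normalized counts on day 23 and 2011 ± 1211 on day 14 (SD, n = 4 each), the SDs holding both runs. With run held, the log2 difference was 0.82, a 1.76-fold higher level on day 23 (SE 0.24, 95% interval 0.32 to 1.32, adjusted p = 0.0993 by limma), which did not pass the threshold of 0.05. It had the fifth smallest p of the panel in that comparison. Within run 2 alone the value was 0.48, and within run 1 alone 1.16. The difference between these was -0.68 (SE 0.47, adjusted p = 0.374 by limma), so a difference between runs was not detectable. Against day 14, day 17 differed by 0.41 (SE 0.24) and day 20 by 0.37 (SE 0.24). Day 23 differed from day 17 by 0.41 (SE 0.24) and from day 20 by 0.45 (SE 0.24), with adjusted p-values over these 4 comparisons from 0.504 to 0.963. As a straight line over the days, miR-27b-3p had a slope of 0.081 on the log2 scale for each day (SE 0.025), with an adjusted p of 0.0830 by limma. Of all probes 0.49% had a called slope, 14.7% sloped up at an unadjusted p under 0.05 and 23.5% sloped either way at that p; the members among them were miR-27b-3p and miR-23b-3p.

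Levels of miR-23b-3p, from the same transcript as miR-27b-3p, were likewise lowest on day 14 in run 1. In run 2 its normalized counts were 3682 and 4789 on day 14, 3838 and 4475 on day 17, 3244 and 5486 on day 20, and 4853 and 4898 on day 23. In run 1 they were 1208 and 1473 on day 14, 2039 and 1812 on day 17, 3081 and 2340.2 on day 20, and 2427 and 2805 on day 23. In each run the day 23 glands lay above both day 14 and both day 17 glands, while the 2 glands of day 20 were far apart in run 2.

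The log2 difference of miR-23b-3p between day 23 and day 14 was 0.59, or 1.51-fold higher on day 23 (SE 0.25, 95% interval 0.07 to 1.11, adjusted p = 0.175 by limma). It was 0.22 in run 2 and 0.97 in run 1. Day 20 differed from day 14 by 0.51 (SE 0.25, adjusted p = 0.679), day 17 from day 14 by 0.25 (SE 0.25), and day 23 from day 17 by 0.34 (SE 0.25, adjusted p = 0.612). Day 23 and day 20 lay closest, with 0.08 (SE 0.25, 95% interval -0.43 to 0.60). The slope of 0.068 on the log2 scale for each day (SE 0.025) had an adjusted p of 0.0953 by limma. Of all probes, 7.35% were higher on day 23 than on day 14 without overlap within each run, and 2 of the 4 members were among them, miR-27b-3p and miR-23b-3p. Relative to day 17 it was 1.47% of all probes and 1 of the 4 members, miR-23b-3p.

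miR-23a-3p, which marks the first cluster, differed from day 14 in opposite directions in the 2 runs. In run 2 its normalized counts were 7254 and 8468 on day 14, 5801 and 6798 on day 17, 5057 and 9008 on day 20, and 6204 and 7459 on day 23. In run 1 they were 2215 and 2479 on day 14, 3599 and 3522 on day 17, 5201 and 3615 on day 20, and 3702 and 4732 on day 23. In run 1 the 2 day 14 glands lay below the other 6, and in run 2 day 14 held 2 of the 4 highest values.

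With run held, miR-23a-3p differed by a log2 value of 0.32 between day 23 and day 14 (SE 0.26, 95% interval -0.23 to 0.86, adjusted p = 0.540 by limma), and by 0.15 without day 14 replicate 1. In run 2 it was -0.20 and in run 1 0.84. The difference of -1.04 between runs (SE 0.46, adjusted p = 0.236) did not pass over all probes, of which 0% were called and 19.1% had an unadjusted p under 0.05. On day 20 relative to day 14 the same difference between runs was -1.10 for miR-23a-3p (SE 0.46, adjusted p = 0.221 by limma) and -1.002 for miR-23b-3p (SE 0.45, adjusted p = 0.288), where 15.7% of all probes had an unadjusted p under 0.05. Day 20 differed from day 14 by 0.34 (SE 0.26) and day 17 from day 14 by 0.14 (SE 0.26), and the slope was 0.038 per day (SE 0.026, adjusted p = 0.377).

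miR-24-3p, the product of both clusters, varied least. In run 2 its normalized counts were 1208 and 1258 on day 14, 1078 and 1265 on day 17, 969 and 1298 on day 20, and 1368 and 1145 on day 23. In run 1 they were 475 and 678 on day 14, 848 and 877 on day 17, 957 and 703 on day 20, and 821 and 770.5 on day 23. The days overlapped in run 2, and in run 1 the 2 day 14 glands, which had the lowest totals, were again below the other 6. Its log2 difference between day 23 and day 14 was 0.25 (SE 0.24, 95% interval -0.24 to 0.74, adjusted p = 0.582 by limma), 0.02 in run 2 and 0.49 in run 1. Its slope was 0.023 per day (SE 0.024, adjusted p = 0.622). Without day 14 replicate 1 the difference was 0.08 and the slope 0.0049. The SD left after day and run was 0.25 log2 units for miR-24-3p, 0.28 for miR-27b-3p, 0.31 for miR-23b-3p and 0.36 for miR-23a-3p, against a median of 0.43 over the 204 probes.

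**Figure D2:**
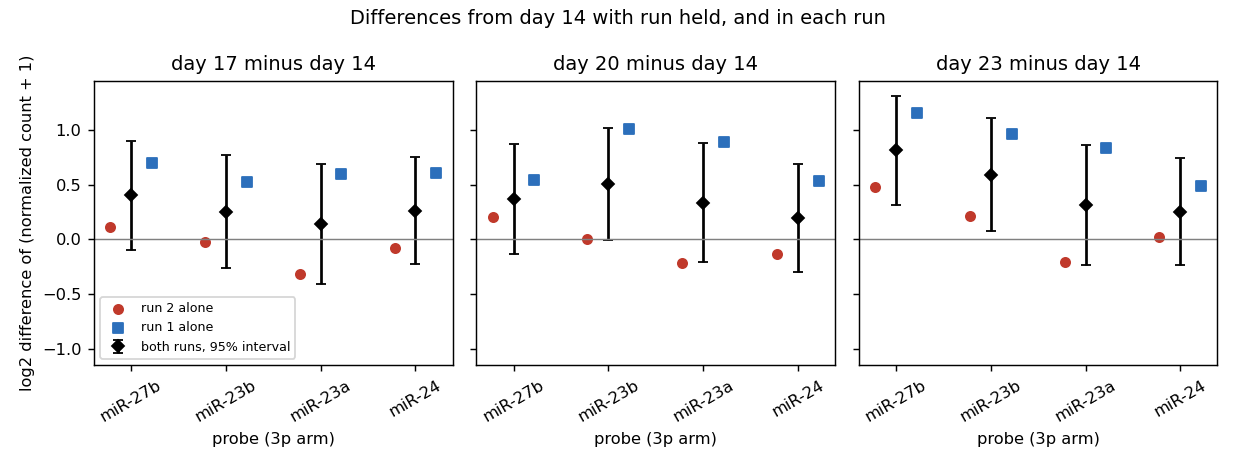
Log2 difference of (normalized count + 1) from day 14 for each probe on day 17, day 20 and day 23; diamonds are the fit with run held and bars its 95% interval, circles are run 2 alone and squares run 1 alone. In every panel and for every probe the run 1 value is above the run 2 value, and the intervals that stay above 0 are those of miR-27b-3p (0.32 to 1.32) and miR-23b-3p (0.07 to 1.11) on day 23.

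The differences from day 14 were larger in run 1, where the day 14 baseline is 2 glands. These had the lowest totals of all 16 glands, 175197 and 213338, and the highest medians of probes without a bovine gene, 258 and 184. Leaving both out leaves day 14 to run 2, so it cannot show why run 1 differed, which was not tested. Without both of them, day 23 minus day 14 was 0.55 for miR-27b-3p (SE 0.29, adjusted p = 0.248 by limma) and 0.21 for miR-23b-3p. For miR-23a-3p it was -0.19 and for miR-24-3p -0.05, both with the sign turned. As shares of the gland's total, which take out the difference in totals, miR-27b-3p held 0.853% and 0.941% on day 23 against 0.662% and 0.645% on day 14 in run 2. In run 1 it held 0.891% and 0.648% on day 23 against 0.492% and 0.531% on day 14. Within each run both day 23 shares of miR-27b-3p lay above both day 14 shares. miR-23b-3p held 1.19% and 0.913% on day 23 against 0.911% and 0.914% on day 14 in run 2, which overlapped, and 0.957% and 0.847% on day 23 against 0.689% and 0.691% on day 14 in run 1, which did not. As shares, 4.41% of all probes were higher on day 23 without overlap within each run, and 1 of the 4 members was among them, miR-27b-3p. The share of miR-24-3p was 0.336% and 0.213% on day 23 against 0.299% and 0.240% on day 14 in run 2, and 0.324% and 0.233% on day 23 against 0.271% and 0.318% on day 14 in run 1. Those ranges overlapped in both runs.

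A ratio of 2 probes within a gland cancels whatever scales both, so ratios were used to compare the members with each other over the days. It does not cancel background added to both, and the effect of background on the ratios was not tested. The pair from one transcript, miR-27b-3p over miR-23b-3p, had a ratio of 0.728 ± 0.028 for day 14 (n = 4, SD), 0.810 ± 0.054 for day 17, 0.699 ± 0.289 for day 20 and 0.861 ± 0.146 for day 23. Day 20 was the most dispersed, from 0.492 to 1.13, with both run 1 glands low, at 0.583 and 0.492, and the run 2 glands at 1.13 and 0.595. On day 14 the 4 glands of both runs lay between 0.705 and 0.769. The slope of its log2 ratio over days was 0.013 per day (exact two-sided permutation of days within runs, p = 0.581), 0.028 in run 2 and -0.002 in run 1. It lay between 0.0025 and 0.020 with any 1 gland left out.

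The miR-23b-3p to miR-23a-3p ratio, one cluster over the other with the same seed, was 0.553 ± 0.037 for day 14 (n = 4, SD), 0.600 ± 0.072 for day 17, 0.623 ± 0.026 for day 20 and 0.672 ± 0.080 for day 23. Its log2 ratio sloped by 0.029 per day (exact permutation p = 0.00365), 0.039 in run 2 and 0.020 in run 1. Between day 23 and day 14 the log2 ratio differed by 0.42 in run 2 and by 0.13 in run 1. In run 2 the ratio was 0.782 and 0.657 on day 23 against 0.508 and 0.566 on day 14. In run 1 it was 0.656 and 0.593 on day 23 against 0.545 and 0.594 on day 14, so the days overlapped there. Signal shared between these 2 probes was not measured.

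Relative to miR-24-3p, both products of the second cluster had positive slopes in each run. In the 2 day 14 glands of run 1, however, miR-24-3p was 1.84 and 3.69 times the median of probes without a bovine gene. In run 1 that median averaged 221 on day 14, 142 on day 17, 137 on day 20 and 140 on day 23. No background was subtracted here, so its part in these slopes was not tested. The ratio of miR-27b-3p to miR-24-3p was 2.10 ± 0.45 for day 14 (n = 4, SD), 2.33 ± 0.57 for day 17, 2.45 ± 0.96 for day 20 and 3.12 ± 0.86 for day 23, and its log2 slope was 0.057 per day (exact permutation p = 0.0125), 0.051 in run 2 and 0.064 in run 1. The ratio of miR-23b-3p to miR-24-3p was 2.89 ± 0.71 for day 14, 2.89 ± 0.77 for day 17, 3.53 ± 0.47 for day 20 and 3.61 ± 0.54 for day 23, with a log2 slope of 0.044 per day (exact permutation p = 0.00865), 0.022 in run 2 and 0.067 in run 1. The remaining ratios were flatter against their spread. miR-27b-3p over miR-23a-3p sloped by 0.043 per day (exact permutation p = 0.0982) and miR-23a-3p over miR-24-3p by 0.015 (exact permutation p = 0.399). miR-23a-3p over miR-24-3p had -0.017 in run 2 and 0.047 in run 1, and 0.0041 to 0.029 with any 1 gland left out.

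These slopes stand against a wide background. Of the 20706 pairs that the 204 probes can form, 22.6% had an unadjusted exact p under 0.05 by the same test, and 2.56% passed after adjustment over all pairs. The 3 member ratios with a p under 0.05 did not pass that adjustment, with 0.0747 for miR-23b-3p over miR-23a-3p, 0.101 for miR-23b-3p over miR-24-3p and 0.116 for miR-27b-3p over miR-24-3p. Of all pairs, 4.89% had a p as small as that of miR-23b-3p over miR-23a-3p.

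**Figure D3:**
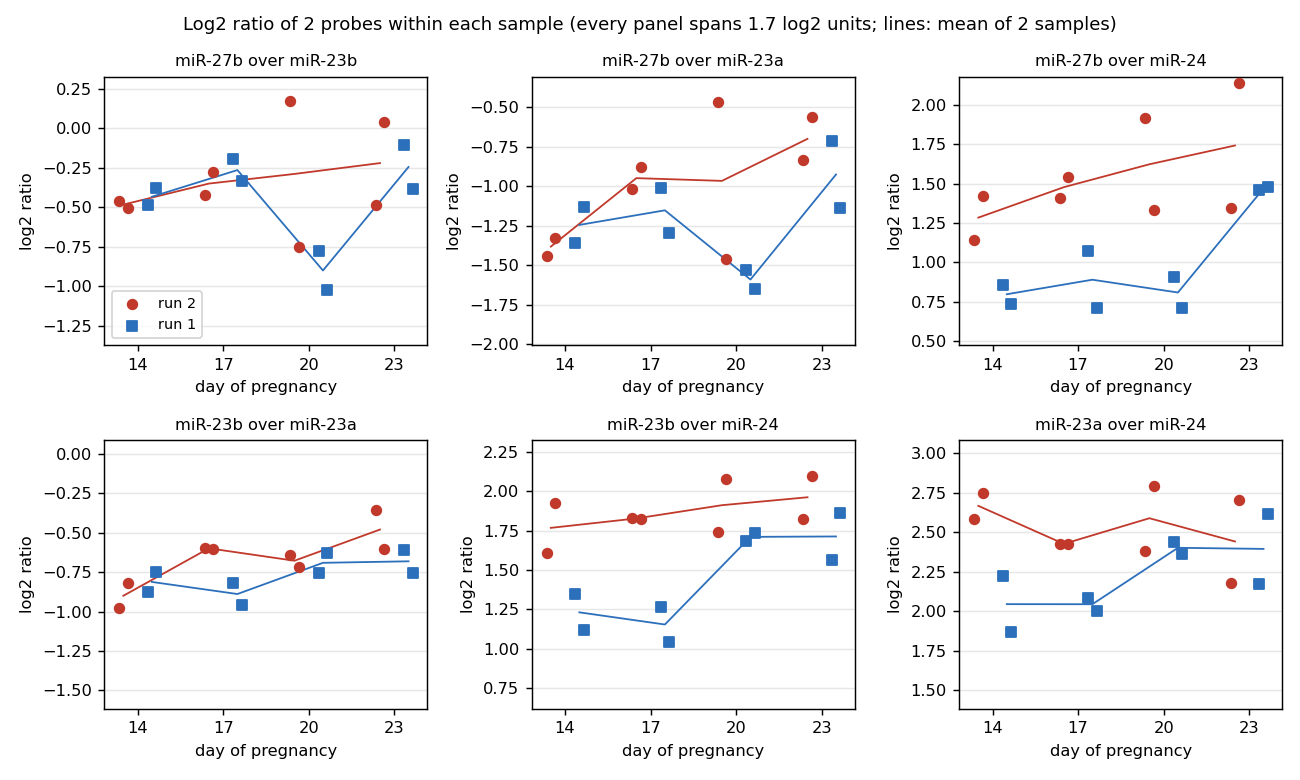
Log2 ratio of 2 probes within each gland by day of pregnancy, for the 6 pairs of members; points are glands, circles are run 2, squares are run 1, and lines join the mean of the 2 glands of a day and run. The ratio of miR-23b to miR-23a changes by 0.029 log2 units per day and spans a narrow range, while the ratio of miR-27b to miR-23b spreads widely on day 20.

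miR-23b-3p and miR-23a-3p, which share a seed but not a transcript, had the highest mean of the 2 within-run correlations among the 6 pairs of members, 0.87. For miR-27b-3p and miR-23b-3p from one transcript it was 0.57, and the difference was not tested. miR-23b-3p and miR-23a-3p also have nearly all bases in common, and signal shared between their probes was not measured. Nor was any signal of miR-27a-3p in the miR-27b-3p probe. Because the runs form separate clusters, correlations of log2 values were taken within each run (n = 8). Day was not held, and the exact permutation shuffled glands across days. Each r therefore also holds any change over days that both probes share. miR-23b-3p and miR-23a-3p had a Pearson r of 0.77 in run 2 (exact permutation p = 0.0282, Spearman rho 0.71, p = 0.0576) and of 0.97 in run 1 (p = 2.5e-05, the smallest that exact permutation of 8 glands gives, Spearman rho 1.0, exact p = 5.0e-05). Without the 2 glands farthest from the median of miR-23b-3p, r was 0.79 in run 2 and 0.89 in run 1. miR-27b-3p and miR-23b-3p had an r of 0.35 in run 2 (exact permutation p = 0.413, Spearman rho 0.24, p = 0.582) and of 0.80 in run 1 (exact permutation p = 0.0181, Spearman rho 0.83, p = 0.0154). In run 1 that relation rested on the 2 day 14 glands, without which r was 0.42, and in run 2 it was -0.05 without the 2 farthest glands.

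Over 12 such values, adjusted exact p-values for Pearson's r were 0.0423 in run 2 and 2.98e-04 in run 1 for miR-23b-3p and miR-23a-3p. For Spearman's rho they were 0.173 in run 2 and 5.95e-04 in run 1. For miR-27b-3p and miR-23b-3p the adjusted values for r were 0.496 in run 2 and 0.0387 in run 1, and for rho 0.699 in run 2 and 0.0615 in run 1. miR-24-3p and miR-23b-3p had an r of 0.78 in run 2 (exact permutation p = 0.0204, adjusted 0.0387, Spearman rho 0.64, p = 0.0962) and of 0.76 in run 1 (exact permutation p = 0.0226, adjusted 0.0387, Spearman rho 0.60, p = 0.132), and of 0.67 in run 2 and 0.08 in run 1 without the 2 farthest glands. miR-24-3p and miR-23a-3p had 0.65 in run 2 and 0.81 in run 1, and without the 2 farthest glands 0.17 in run 2 and 0.37 in run 1. miR-27b-3p and miR-23a-3p had 0.04 in run 2 and 0.80 in run 1, and miR-27b-3p and miR-24-3p had -0.09 in run 2 and 0.78 in run 1. In run 1 these were 0.41 and 0.33 without the 2 day 14 glands. The median r over all pairs of the 204 probes was 0.03 for run 2 and 0.04 for run 1. An r at least that of miR-23b-3p and miR-23a-3p was reached by 5.63% of all pairs in run 2 and 0.179% in run 1. For the other pairs of members this share was 4.34% to 6.42% in run 1 and 5.12% to 57.3% in run 2. All values of a gland share its library total: with totals made equal, miR-23b-3p and miR-23a-3p had 0.35 in run 2 and 0.85 in run 1, and miR-27b-3p and miR-23b-3p -0.05 in run 2 and 0.49 in run 1. On that scale miR-27b-3p and miR-23a-3p had -0.73 in run 2 and 0.49 in run 1, so their sign in run 2 depended on the scaling.

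**Figure D4:**
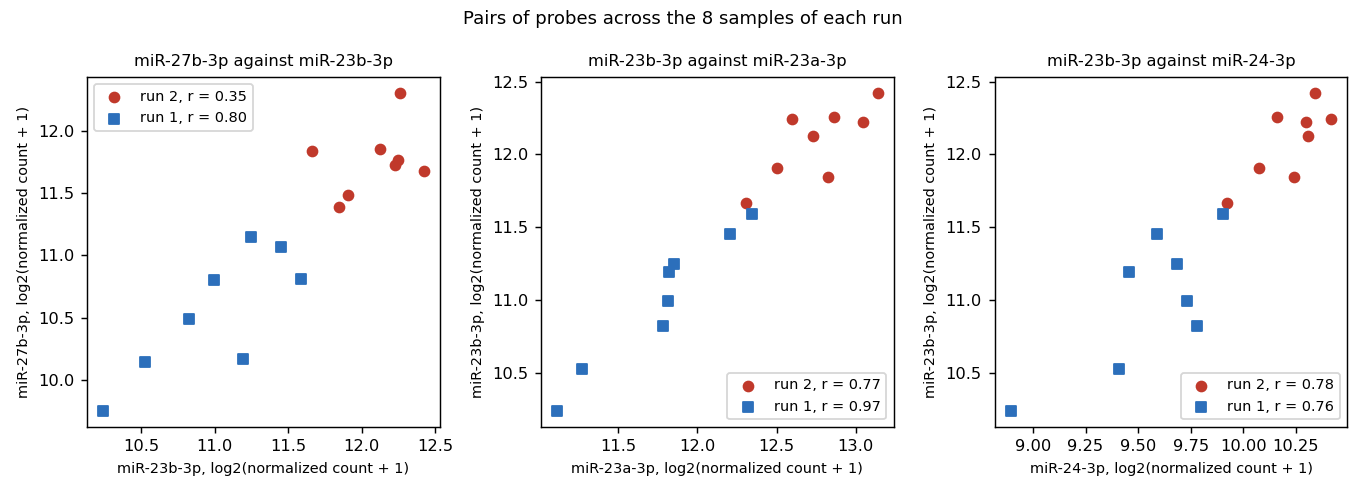
Log2(normalized count + 1) of one probe against another, each point 1 gland, circles for run 2 and squares for run 1, with Pearson's r within each run over all days. miR-23b-3p and miR-23a-3p form a narrow band, with an r of 0.77 in run 2 and 0.97 in run 1, and signal shared between their probes was not measured. miR-27b-3p against miR-23b-3p has 0.35 in run 2 and 0.80 in run 1.

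For each member the nearest probes in pattern were listed by the mean of its 2 within-run r values, out of 203 partners and as a description. For miR-23a-3p the first was miR-23b-3p (0.87), followed by miR-151a-5p (0.86), miR-26b-5p (0.85), miR-98-5p of the let-7 family (0.85) and miR-25-3p (0.85). For miR-23b-3p they were miR-26b-5p (0.90), miR-497-5p, a miRNA with the seed of miR-15 and miR-16 (0.88), miR-23a-3p (0.87), miR-98-5p (0.85) and miR-151a-5p (0.83). miR-23a-3p and miR-23b-3p thus shared 3 of their 5 nearest probes besides each other.

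For miR-24-3p the first was miR-23b-3p (0.77), then miR-10b-5p, a miRNA hosted in the HOX gene clusters (0.75), let-7g-5p (0.75), miR-140-5p, known from cartilage (0.74), and miR-23a-3p (0.73). miR-27b-3p had none of the other members among its 5 nearest probes. These were miR-30d-5p (0.88), miR-324-5p (0.81), miR-107 (0.80), miR-361-5p (0.74) and miR-181a-5p (0.72). Its transcript partner miR-23b-3p came in place 21 of 203 with a mean r of 0.57, miR-23a-3p in place 47 and miR-24-3p in place 56.

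The lists of other miRNAs that mark cell types of the gland had no called member in any comparison of days. Of all probes 0.49% were called for day 23 minus day 14 and 0% for every other pair of days, so this does not set the lists apart from the panel. Of 8 measured endothelial and angiogenic miRNAs, 2 were above 0 and 6 below in day 23 minus day 14, with a median log2 difference of -0.41, against a median of 0.001 over all 204 probes. miR-126-3p, an endothelial miRNA and the most abundant of the list, had -0.46 (SE 0.31, adjusted p = 0.419 by limma) and miR-10b-5p -0.13 (SE 0.29, adjusted p = 0.892). The summed level of this list ran from 9592 to 20453 normalized counts on day 23 and from 9472 to 35035 on day 14, and none of its markers was at 0. These ranges mix both runs, whose median sums were 23132 in run 2 and 11099 in run 1. The 4 members had differences of 0.25 to 0.82.

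Of 6 smooth muscle, pericyte and fibroblast miRNAs, 3 were above 0 and 3 below between day 23 and day 14, with a median of -0.04. A joint probe for the 3p forms of miR-199a and miR-199b had -0.18 (SE 0.34, adjusted p = 0.857) and miR-145-5p, a smooth muscle miRNA, 0.50 (SE 0.24, adjusted p = 0.228). All 4 blood cell miRNAs were below 0, with a median of -0.84. Among them were miR-150-5p of lymphocytes with -0.18 (SE 0.43, adjusted p = 0.892) and miR-451a of erythrocytes with -1.04 (SE 0.45, adjusted p = 0.176). Over both runs their sum ran from 808 to 1829 normalized counts on day 23 and from 757 to 4968.5 on day 14.

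Of 5 steroidogenic and gonadotropin-responsive miRNAs 4 were above 0, with a median of 0.26. miR-125b-5p had 0.82 (SE 0.29, adjusted p = 0.124) and miR-21-5p -0.56 (SE 0.32, adjusted p = 0.332). Of the miRNAs whose seed equals or overlaps that of a member, miR-128-3p, whose seed lies close to that of miR-27, had -0.32 (SE 0.34, adjusted p = 0.641), and miR-23c had 0.25 (SE 0.29, adjusted p = 0.695) at levels near those of probes without a bovine gene. miR-27a-3p, also of this list, had no probe here. What these cell types contribute to the members' levels was not tested.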

How the data were processed

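The authors deposited 1 table of 204 miRNA probes in 16 columns, a non-negative signal called normalized counts in the deposited file's name. The sources used here do not name the software, probe panel, background correction, normalization or filters. Low values lay on even steps of 0.664 to 2.91 normalized counts with a shift other than 0, so counts were not recovered and no counting interval is given; the members lay at 393 to 8519 steps. Columns were matched to samples by title. Values became log2(normalized count + 1); all 204 probes reached 20 in at least 4 samples. One linear model per probe (limma 3.58.1, R 4.3.3; lmFit, eBayes with a trend) held day as a factor, or as a number for slopes, and run; p-values were adjusted by Benjamini-Hochberg over all probes, with a threshold of 0.05. Ratios were tested by exact permutation within runs (6350400 arrangements). The design text gives 4 pregnant cattle per day. Simulated data for day 23 against day 14 held 204 probes, 40 of them changed, in each of 20 sets. There 62.75% of simulated 1-unit log2 differences and 98% of 2-unit ones were found, and 4.741% of calls were false. The real comparison had 1 call, where the adjustment is stricter, so these shares do not give its power. The 2 glands within a day and run were 0.475 to 0.871 apart (root mean square, log2), so neither column of such a pair was a copy of the other. Glands of different runs were not compared in this way, and repeat measurement of the same RNA was not tested. Same-numbered samples deviated together in 24 of 24 pairs (r 0.19 to 0.81), replicates 1 and 2 being run 1 and 3 and 4 run 2; with run removed, 9 of 24 exceeded 0.1. The members, lists and tests were chosen with earlier results of these data known; named probes were the members, the 5 nearest probes of each, and the 2 most abundant members of each list. No miRNA sequences were used here.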

Additional observations from a re-analysis of the deposited data

Results flagged for a closer look

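In 3 cases a value lay apart from the other glands of their day by Dixon's criterion, among 40 groups of 4 glands examined. Chance gives about 2 if the glands of a group are alike, but each group held 2 glands of each run. On day 20, replicate 3 had the highest log2 ratio of miR-27b-3p over miR-23a-3p, at -0.47. On day 23, replicate 4 had the highest log2 ratio of miR-27b-3p over miR-24-3p, at 2.14. On day 20, replicate 4 had the highest log2 ratio of miR-23b-3p over miR-24-3p, at 2.08. All 3 glands are of run 2. On the linear scale the means of these 3 ratios were 0.516, 2.96 and 3.67 in run 2 against 0.435, 2.03 and 2.79 in run 1.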

How the results depend on the processing

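Calls of ratio slopes here are those adjusted over the 6 ratios alone, whose members were chosen with results known. The 3 that passed were miR-27b-3p over miR-24-3p, miR-23b-3p over miR-23a-3p and miR-23b-3p over miR-24-3p. In that order their log2 slopes per day were 0.0574, 0.0295 and 0.0444, with exact permutation p adjusted to 0.0249, 0.0219 and 0.0249. Adjusted over all pairs, a later choice, none passed, with exact permutation p adjusted to 0.116, 0.0747 and 0.101. No alternative gave an adjusted p under 0.05 for miR-24-3p between days. With each gland centred on its median, calls over all probes were 6 for day 23 minus day 14 and 20 for slopes, against 1 each; miR-27b-3p passed at 0.89 (adjusted p = 0.0343 by limma), as did the slopes of miR-27b-3p (0.0883) and miR-23b-3p (0.0753), and the signs turned for miR-24-3p between days 23 and 17 (0.017) and miR-23a-3p between days 23 and 20 (0.0045). With totals made equal, which moved the median of all probes by -0.30 for day 23 minus day 14, there were 19 called slopes; signs turned for miR-23a-3p on day 17 (-0.0046) and for miR-24-3p on day 20 (-0.049), on day 23 (-0.049) and in its slope (-0.010). Without the run term 0 probes were called for day 23 minus day 14 and 0 for slopes, and the ratio slopes of miR-27b-3p (0.0574) and miR-23b-3p (0.0444) over miR-24-3p lost this call over the 6. Requiring 100 normalized counts in 8 glands left 135 probes and 3 called slopes.

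Run 1 alone called 5 probes on day 17, 31 on day 20 and 40 on day 23 relative to day 14, 1 for day 20 minus day 17, 4 for day 23 minus day 20, 40 over the 4 days and 9 slopes. There day 23 minus day 14 passed for miR-27b-3p (1.16), miR-23b-3p (0.97) and miR-23a-3p (0.84), day 20 minus day 14 for miR-23b-3p (1.01) and miR-23a-3p (0.89), and the slope for miR-23b-3p (0.113). Signs turned for day 23 minus day 20 of miR-23b-3p (-0.042) and miR-24-3p (-0.044) and for the ratio slope of miR-27b-3p over miR-23b-3p (-0.0023). The 3 ratio calls were lost, with slopes of 0.0642, 0.0197 and 0.0666 in the order given above. Run 2 alone called 0 probes for day 23 minus day 14 (19 at an unadjusted p under 0.05 by limma) and 0 slopes (27 unadjusted). Signs turned there on day 17 for miR-23a-3p (-0.32), miR-23b-3p (-0.019) and miR-24-3p (-0.079), on day 20 for miR-23a-3p (-0.22) and miR-24-3p (-0.14), and on day 23 for miR-23a-3p (-0.20), all relative to day 14. They also turned for miR-27b-3p between days 20 and 17 (0.087) and miR-24-3p between days 23 and 17 (0.10). For miR-23a-3p they turned between days 23 and 20 (0.011), in its slope (-0.017) and in its ratio slope over miR-24-3p (-0.0172). The 3 ratio calls were lost, with slopes of 0.0505, 0.0393 and 0.0222 in the order given above. Each run holds fewer glands, and no other cause was tested.

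Leaving out both day 14 glands of run 1, chosen after seeing the data, gave 5 calls for day 23 minus day 14 and 5 slopes. Signs turned on day 17 for miR-23a-3p (-0.37), miR-23b-3p (-0.13) and miR-24-3p (-0.040), on day 20 for miR-23a-3p (-0.18) and miR-24-3p (-0.11), on day 23 for miR-23a-3p (-0.19) and miR-24-3p (-0.048), and in the slopes of miR-23a-3p (-0.0010) and miR-24-3p (-0.0054). The ratio slopes of miR-27b-3p (0.0636) and miR-23b-3p (0.0424) over miR-24-3p lost their call.

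Leaving out 1 gland at a time gave 0 to 10 calls for day 23 minus day 14 (0 without day 14 replicate 1 or 3 or day 23 replicate 1 or 4, with 23 to 40 under 0.05 by limma before adjustment; 3 without day 14 replicate 4; 10 without day 23 replicate 3) and 0 to 11 called slopes. The count of slopes stayed within 1.5 times the full count of 1 without day 14 replicate 2, day 17 replicate 4 or day 20 replicate 3, and left that range without any of the other 13 glands (11 without day 23 replicate 3 and 9 without day 14 replicate 4). miR-27b-3p ranged from 0.67 to 0.97 for day 23 minus day 14, passing without day 23 replicate 3 (adjusted p = 0.0449 by limma), and its slope from 0.0664 to 0.0921, passing without that gland or day 14 replicate 4. Uncalled values that moved by over 1.5 times included day 23 minus day 14 of miR-24-3p (0.078 to 0.35; lowest without day 14 replicate 1) and miR-23a-3p (0.15 without day 14 replicate 1 to 0.50 without day 14 replicate 4, also past 1.5 times without day 14 replicate 2 or day 23 replicate 2), and the slopes of miR-24-3p (0.0049 to 0.029) and miR-23a-3p (0.022 to 0.053), both lowest without day 14 replicate 1. The ratio slopes of miR-27b-3p over miR-23b-3p (0.0025 without day 23 replicate 4 to 0.020 without day 23 replicate 3) and miR-23a-3p over miR-24-3p (0.0041 without day 23 replicate 2 to 0.029 without day 23 replicate 3) moved likewise. Ranges that crossed 0 were -0.027 to 0.32 for miR-23a-3p on day 17 minus day 14, -0.19 to 0.050 for miR-24-3p and -0.14 to 0.093 for miR-27b-3p on day 20 minus day 17, and -0.092 to 0.042 for miR-24-3p on day 23 minus day 17. On day 23 minus day 20 they were -0.23 to 0.14 for miR-23a-3p, -0.13 to 0.23 for miR-23b-3p and -0.058 to 0.18 for miR-24-3p. Ratio slopes ranged from 0.0459 to 0.0720 for miR-27b-3p and from 0.0375 to 0.0529 for miR-23b-3p over miR-24-3p, and from 0.0236 to 0.0345 for miR-23b-3p over miR-23a-3p; all 3 lost their call without day 14 replicate 3, both ratios over miR-24-3p without day 23 replicate 2 or 4, and miR-27b-3p over miR-24-3p without day 23 replicate 1. With the replicate number as a replicate block, miR-27b-3p had 0.82 for day 23 minus day 14 (adjusted p = 0.0895 by limma), and no call changed. Normalized counts carry no known depth, so counting error could not be given.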
